A study of Mus musculus with 6 samples.

Results

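The genes described here encode the factors that start and extend protein chains on the ribosome. They were taken by name: all genes whose single annotated symbol begins with Eif or Eef on the array, apart from 4 symbols that the selection leaves out. This gave 49 of the 12393 genes with a single-symbol probe set. Each gene is represented by its probe set with the highest mean log2 signal over the 6 arrays. Of the 49 genes, 46 lay above the brightness limit (a signal of 19.2, the 40th percentile) and were tested among 7867 genes. Eif4ebp1, Eef1aknmt and Eef2kmt lay below it.

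The study asked how hippocampal gene expression differs when the kinase Rsk2 is missing. Hippocampi came from male Rsk2-KO mice aged 2 months and from their normal male littermates of the same age, labelled WT, both on a C57BL/6J background. Every array received RNA from a pool of 2 hippocampi, 3 arrays per genotype, with labelled cRNA made from 6 ug of total RNA. The labels name no Cre driver and do not describe the disrupted allele, no treatment was given, and whether pools share animals is not said. A p-value here therefore reflects only how much these 6 pools vary, which may be technical. The arrays keep the numbers 1 to 3 of their titles.

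Translation begins when the eIF4 group binds the capped end of an mRNA and the small ribosomal subunit, carrying eIF1A, eIF2, eIF3 and eIF5, scans to the start codon. eIF2 brings the first tRNA and is recharged with GTP by eIF2B, and kinases that phosphorylate its alpha subunit slow this step. eEF1A then delivers each aminoacyl-tRNA and eEF2 moves the ribosome along. Kinases of the Rsk family act downstream of ERK and are known to phosphorylate ribosomal protein S6 and the eEF2 kinase. In hippocampal neurons, control of initiation and elongation is known for its place in synaptic plasticity and memory.

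The RefSeq promoter table (GRCm38.p6) held 37 of the 46 tested genes, with 250 bases before and 50 after each annotated start. In the table, 11 short motifs were searched on both strands. The windows below are the 120 bases before the start, 5′ to 3′ on the gene's strand. Eif3a, Eif5b and Eif3m are shown because Eif3a had the smallest p and the other two were the factors most like it over the arrays, and Eif3k and Eef2 because they carry the E-box letters CACGTG. Capitals mark CACGTG or the ETS-type letters CCGGAAG.
Eif3a: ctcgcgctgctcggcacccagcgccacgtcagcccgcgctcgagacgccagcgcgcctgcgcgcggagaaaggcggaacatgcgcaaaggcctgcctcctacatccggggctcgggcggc
Eif5b: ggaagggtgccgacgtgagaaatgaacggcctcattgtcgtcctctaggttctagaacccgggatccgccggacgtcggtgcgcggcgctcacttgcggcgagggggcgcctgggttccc
Eif3m: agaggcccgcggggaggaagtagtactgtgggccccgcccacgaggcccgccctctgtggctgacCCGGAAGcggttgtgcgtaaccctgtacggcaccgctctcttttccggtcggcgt
Eif3k: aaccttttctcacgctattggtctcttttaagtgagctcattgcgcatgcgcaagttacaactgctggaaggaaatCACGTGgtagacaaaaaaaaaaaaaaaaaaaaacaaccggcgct
Eef2: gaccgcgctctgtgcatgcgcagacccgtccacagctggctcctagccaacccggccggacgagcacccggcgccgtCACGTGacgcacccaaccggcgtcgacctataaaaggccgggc

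These windows lie at chr19:60790694-60790813 (minus strand), chr1:37997890-37998009 (plus), chr2:105017028-105017147 (minus), chr7:28981889-28982008 (minus) and chr10:81176511-81176630 (plus), in the order shown. CACGTG begins 44 bases before the start of Eif3k and 43 before that of Eef2. Eif3a holds it too, 22 bases after its start and outside the window shown. In Eif3m, CCGGAAG begins 55 bases before the start. The letters CACGTG were present in 10 of the 37 factor promoters (27.0%), in 12.7% of the 6438 tested genes with a promoter entry and in 8.1% of all 27025 entries. CCGGAAG was present in 13 of 37 (35.1%), against 21.3% and 9.9%. Of the other motifs, 4 lay below the share of the tested genes: GGGCGG was in 70.3% against 71.9%, CCAAT in 37.8% against 43.1%, TATAAA in 8.1% against 8.6% and TGACGTCA in 2.7% against 3.7%. The remaining 5 motifs lay above it: TTCCGG, which overlaps the complement of CCGGAAG, in 54.1% against 32.7%, TGACG in 48.6% against 37.8%, TGACGCA in 10.8% against 4.7%, CGCATGCG in 5.4% against 4.8% and GACTACAA in 2.7% against 2.3%. A match describes letters and is not a measured binding site.

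No factor gene passed the test on all 6 arrays. At a limma adjusted p under 0.05, 0 of 46 were called, as were 0 of all 7867 genes (0%). At an unadjusted p under 0.05, Eif3a, Eif2ak2 and Eif3m were higher in Rsk2-KO, 3 of 46 where 4.04% of all genes were. In the same way Eif4e2 was lower, 1 of 46 where 3.44% of all genes were. Signals of the genotypes did not overlap for 3 factors that were higher (Eif2ak2, Eif3m and Eif5b; 5.47% of all genes) and for 4 that were lower (Eif4e2, Eif2b5, Eif3i and Eif4enif1; 8.76% of all genes). Of these, Eif2ak2 passed the brightness limit only through its Rsk2-KO arrays, so it had to differ; it adds 1 to both counts of higher factors and supports nothing. These shares are near those over all genes. The log2 difference was below 0 for 27 of 46 factors (58.7%), against 56.4% of all genes, and its median was -0.08 over the factors and -0.04 over all genes. The median standard error of a difference was 0.189.

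**Figure D1:**
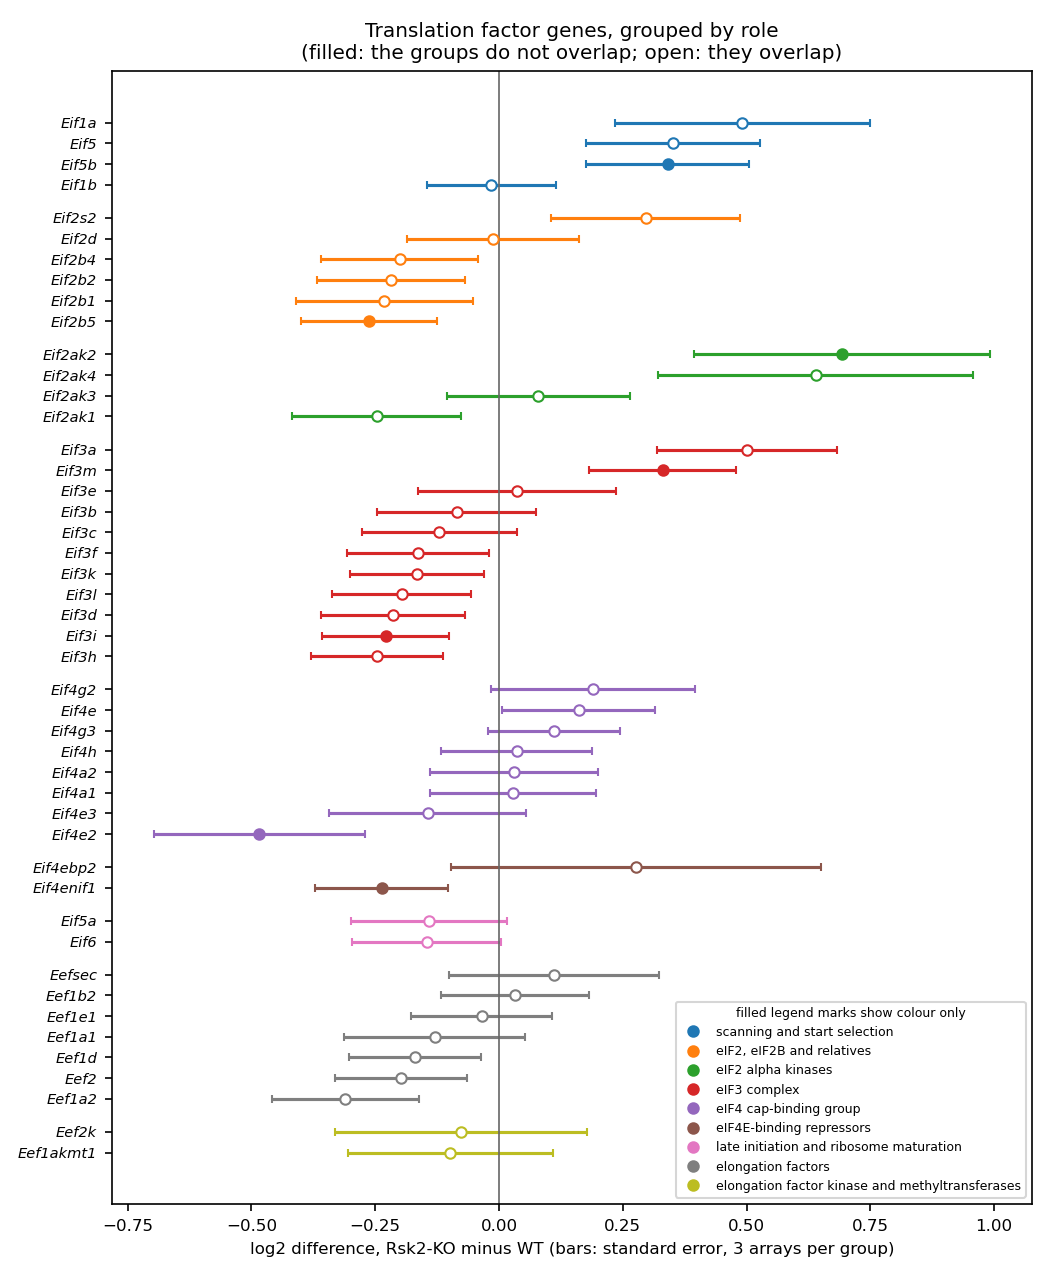
Log2 difference (Rsk2-KO minus WT, x axis) of each of the 46 tested factor genes, one per line and coloured by role, with bars for the standard error from limma (3 arrays per genotype); filled points mark genes whose genotypes did not overlap. The scanning factors lie mostly above 0. So do the eIF2 alpha kinases, but Eif2ak2 was tested only because of its Rsk2-KO arrays. Of the tested subunits, 8 of 11 of eIF3 and all 4 of eIF2B lie below 0.

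The arrays numbered 3 stood apart from the other 4. On the first principal component, with 40.2% of the variance, they lay at 20 and 23.6, while the others lay between -15.6 and -6.36. On the second, with 27.8%, arrays 1 and 2 lay at 17.4 and 13.7 for Rsk2-KO and at -19.4 and -12.4 for WT. There the arrays numbered 3 lay at 1.32 (Rsk2-KO) and -0.546 (WT), so over all tested genes that pair was little parted on it. The probe set for the targeted gene, Rps6ka3, was not lower in the arrays labelled Rsk2-KO: its signals were 99.2, 98.4 and 87.0, against 74.2, 59.7 and 89.2 in WT (log2 difference 0.37, SE 0.18, limma adjusted p = 0.617). Where its probes lie relative to the disrupted part was not analysed here, so it does not check the labels. All 6 neuron markers were measured, with summed signals of 6334 to 6574 in Rsk2-KO and 5849 to 6280 in WT. By marker, 3 were above 0 and 3 below, with a median log2 difference of -0.03. Snap25 had the largest positive difference (0.19) and Rbfox3 the largest negative one (-0.18). Of 10 hippocampal neuron markers 7 were measured, with sums of 1202 to 1642 against 1181 to 1251. Of these, 6 were above 0 and 1 below (median 0.13). The 2 measured choroid plexus markers summed to 536 to 1663 in Rsk2-KO and 703 to 2165 in WT, and the 6 microglial markers to 819 to 952 and 860 to 1027. Such sums rest on the brightest markers. By single marker, both choroid plexus genes were above 0 (Ttr 0.10, Kl 0.66), and 3 microglial genes were above 0 and 3 below (median 0.02). Measured astrocyte markers were 4 above 0 and 2 below (median 0.09), and oligodendrocyte markers 3 above and 2 below (0.04). Endothelial markers were 1 above and 3 below (-0.20). No signal was 0. The part of cell makeup in the factor values was not tested, and fewer cells of a type and less RNA per cell cannot be told apart in such tissue.

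The 4 tested factors of scanning and start selection comprise Eif1a, Eif1b, Eif5 and Eif5b. Their median log2 difference was 0.35, with 3 above 0 and 1 below. Eif5b, the GTPase that joins the large ribosomal subunit, had signals of 119, 119 and 121 on Rsk2-KO arrays 1 to 3 and 80.7, 92.5 and 113 on WT arrays 1 to 3. All Rsk2-KO arrays were above all WT arrays, and the Rsk2-KO values were tightly grouped (119.6 ± 0.847 against 95.4 ± 16.2, SD, n = 3). The log2 difference was 0.34 (SE 0.16, limma adjusted p = 0.617).

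Eif5 encodes the factor that triggers GTP hydrolysis by eIF2 at the start codon. It had signals of 610.5, 611 and 693 in Rsk2-KO and 482, 399 and 646 in WT. WT array 3 exceeded Rsk2-KO arrays 1 and 2, so the genotypes overlapped (difference 0.35, SE 0.18, adjusted p = 0.617). Eif1a, which helps hold the scanning subunit open, had signals of 138, 143 and 72.7 in Rsk2-KO and 75.4, 96.8 and 70.7 in WT. Rsk2-KO arrays 1 and 2 were the highest of the 6, and Rsk2-KO array 3 lay among the WT values (difference 0.49, SE 0.26, adjusted p = 0.617). The genome holds close copies of Eif1a, so part of its signal may be theirs. For Eif1b, a relative of the start codon guard eIF1, the difference was -0.02.

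Among eIF2, eIF2B and their relatives, 1 gene lay above 0 and 5 below, with a median of -0.21. Eif2s2, the beta subunit of eIF2, had signals of 515, 509 and 609.8 in Rsk2-KO and 371, 386 and 604 in WT. The arrays numbered 3 were the highest of each genotype and nearly equal, and the gap lay in arrays 1 and 2 (difference 0.30, SE 0.19, limma adjusted p = 0.648). Eif2d, which can deliver tRNA without eIF2, differed by -0.01.

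All 4 tested eIF2B subunits were below 0, between -0.26 and -0.20. Eif2b5, the catalytic epsilon subunit, had signals of 121, 119.6 and 115 in Rsk2-KO and 142, 149 and 136 in WT. Every Rsk2-KO array lay below every WT array, the arrays numbered 3 included. Its means were 119 ± 3.2 and 142 ± 6.77 (SD, n = 3), a difference of -0.26 (SE 0.14, adjusted p = 0.617). Eif2b1, Eif2b2 and Eif2b4 encode the alpha, beta and delta subunits. Their differences were -0.23, -0.22 and -0.20, and their genotypes overlapped. Between the arrays numbered 3 they differed by -0.02, -0.09 and 0.19, in the same order. The probe set of Eif2b2 is of a kind that can also bind related transcripts, and its other kept probe sets were at -0.02 and -0.21. Between the arrays numbered 3 those other probe sets were at 0.88 and -0.16. None of the 4 reached an unadjusted p under 0.05.

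The 4 kinases that phosphorylate the alpha subunit of eIF2 had a median difference of 0.36, with 3 above 0 and 1 below. Both the median and the count include Eif2ak2, which supports nothing for the reason given below. The other kinases were at 0.64 (Eif2ak4), 0.08 (Eif2ak3) and -0.25 (Eif2ak1). Eif2ak2 encodes PKR, which responds to double-stranded RNA. Its signals were 19.6, 32.8 and 30.5 in Rsk2-KO and 14.3, 17.3 and 18.8 in WT. Each Rsk2-KO array was above each WT array, by the least for Rsk2-KO array 1 against WT array 3. The means were 27.6 ± 7.04 and 16.8 ± 2.3 (SD, n = 3), a difference of 0.69 (SE 0.30, limma adjusted p = 0.617). All 3 WT signals lay below the brightness limit of 19.2 and all 3 Rsk2-KO signals above it, so the gene was tested only because of the genotype in which it is higher. Its difference is therefore a description, at signals where MAS5 values are noisy.

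Eif2ak4, the amino acid starvation kinase GCN2, was also dim, with signals of 36.8, 46.1 and 21.4 in Rsk2-KO and 22.6, 24.3 and 17.5 in WT. Array 3 was the lowest of each genotype, and Rsk2-KO array 3 fell within the WT range (difference 0.64, SE 0.32, adjusted p = 0.617). Eif2ak3, the endoplasmic reticulum stress kinase PERK, had signals of 75.9, 74.4 and 100.2 in Rsk2-KO and 72.9, 72.4 and 91.0 in WT. These values overlapped (difference 0.08, SE 0.19, adjusted p = 0.907). Eif2ak1, the heme-regulated kinase, differed by -0.25 (SE 0.17, adjusted p = 0.662).

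**Figure D2:**
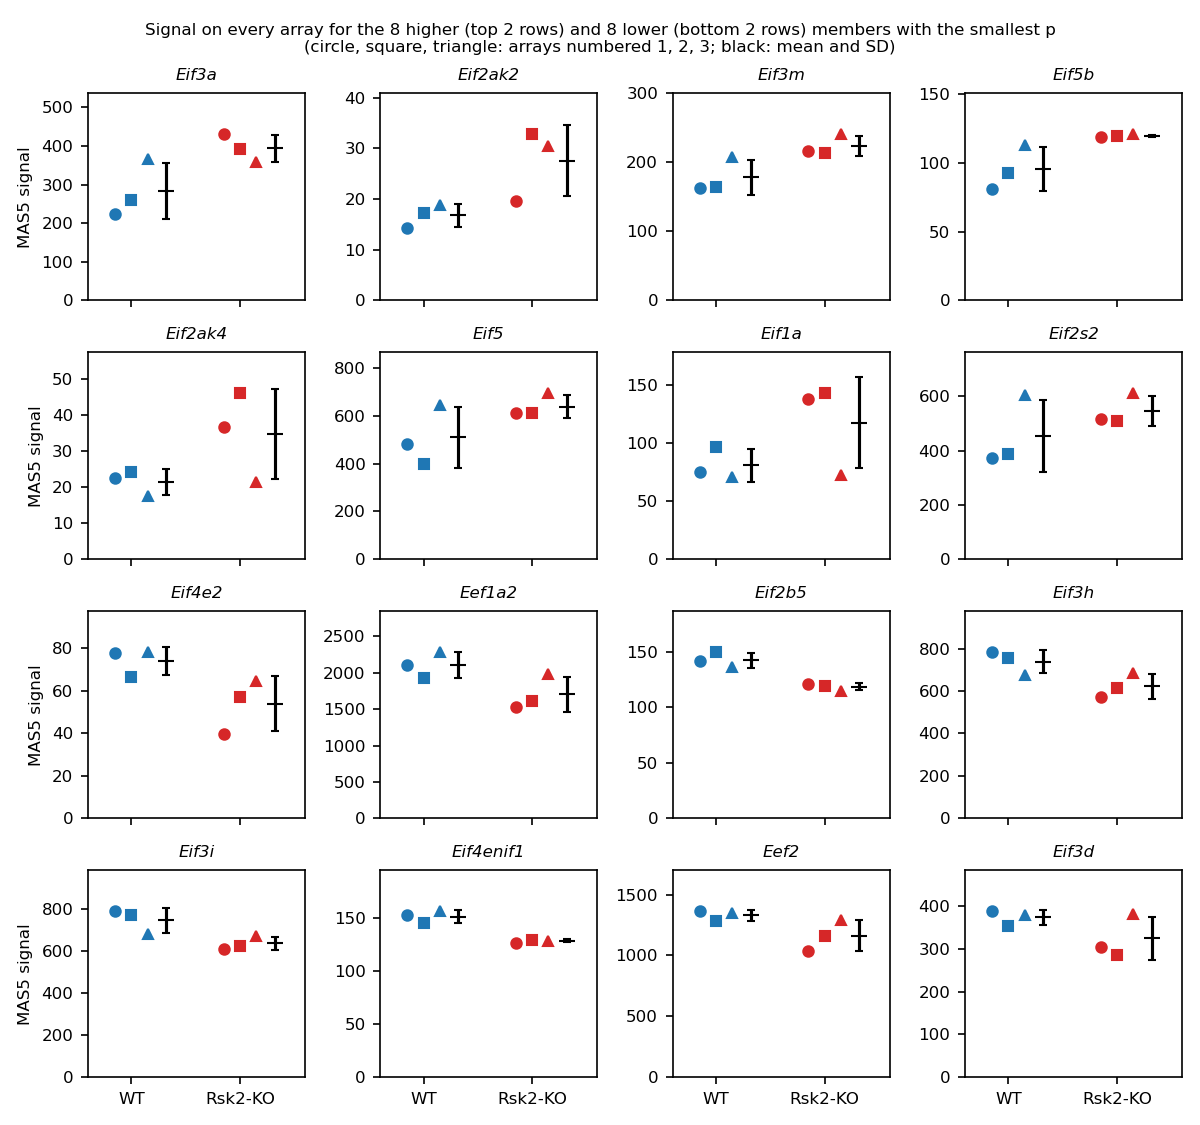
MAS5 signal (y axis, from 0) on every array for the 8 factors with the smallest unadjusted p in each direction, with WT in blue, Rsk2-KO in red, and black marks for mean and SD (n = 3). The triangles, arrays numbered 3, lie close together for Eif3a, Eif1a, Eif2s2, Eif3h, Eif3i and Eif3d. For Eif2b5 and Eif4enif1 they are as far apart as the groups. The same holds for Eif2ak2, which was tested only because of its Rsk2-KO arrays.

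The eIF3 complex bridges the small subunit to the mRNA and is the largest initiation factor. Of its 11 tested subunits 3 lay above 0 and 8 below, with a median of -0.16. Eif3a, the largest subunit, had the smallest p of all factors. Its signals were 430.1, 391 and 359.5 in Rsk2-KO and 224, 261 and 365 in WT. Rsk2-KO arrays 1 and 2 were the highest, whereas the arrays numbered 3 were nearly equal, so the genotypes overlapped. Means were 394 ± 35.3 and 283 ± 73.3 (SD, n = 3), a difference of 0.50 (SE 0.18, unadjusted p = 0.0201 and adjusted p = 0.617 from limma).

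Eif3m, one of the smaller subunits, gave 217, 213 and 240.2 in Rsk2-KO and 163, 165 and 208 in WT. There was no overlap, and in both genotypes array 3 was highest (difference 0.33, SE 0.15, limma adjusted p = 0.617). Its probe set is of a kind that can also bind related transcripts. The subunit Eif3e gave 724, 639 and 951 in Rsk2-KO and 845, 566 and 853 in WT. These signals were spread alike in both genotypes, with a difference of 0.04 (SE 0.20).

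Several other eIF3 subunits lay on the opposite side of 0. Eif3i gave 611, 624 and 674 in Rsk2-KO and 789, 772 and 679.8 in WT (difference -0.23, SE 0.13, limma adjusted p = 0.619). The groups did not overlap, but Rsk2-KO array 3 and WT array 3 were nearly equal. Eif3h gave 570.0, 613 and 685 against 782, 755 and 677 (difference -0.25, SE 0.13, adjusted p = 0.617). Eif3d, a subunit that can itself bind the cap, gave 304, 286 and 382 against 387, 353 and 379 (difference -0.21, SE 0.15, adjusted p = 0.660). In both, Rsk2-KO arrays 1 and 2 were the lowest of the 6 and the arrays numbered 3 were alike. The other 5 subunits, Eif3b, Eif3c, Eif3f, Eif3k and Eif3l, had differences between -0.20 and -0.09.

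Signals of Eif3a over the 6 arrays were most like those of Eif5b (Pearson r = 0.967), Eif3m (0.88) and Eif2s2 (0.822), on the log2 scale. The most opposite were Eif3i (-0.975), Eif3h (-0.937) and Eif3k (-0.892), which were looked up after their values were seen. These 6 arrays share genotype and number, so the correlations are a description of them.

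The cap-binding group, 8 genes, had a median of 0.03, with 6 above 0 and 2 below. Eif4e2 encodes a cap-binding protein that represses initiation. It gave 39.7, 57.2 and 64.7 in Rsk2-KO and 77.6, 66.6 and 78.0 in WT. No Rsk2-KO array reached the WT range, and Rsk2-KO array 1 was the lowest. The means of Eif4e2 were 53.9 ± 12.8 and 74.1 ± 6.47 (SD, n = 3), a difference of -0.48 (SE 0.21, unadjusted p = 0.0452 and adjusted p = 0.617 from limma). It was the factor furthest below 0.

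Eif4e, the cap-binding protein that recruits the ribosome, gave 510.1, 561 and 444 in Rsk2-KO and 501, 478 and 379 in WT. The 6 values were intermingled (difference 0.16, SE 0.15, limma adjusted p = 0.735). Eif4a1, a helicase that opens the leader of the mRNA, gave 879, 1016 and 919 against 759.9, 1159 and 878. Eif4a2, its brain-enriched relative, gave 1895, 1911 and 2529 against 2093, 1750.2 and 2348. Both helicases differed by 0.03 (SE 0.17 each), and both turned to the other side of 0 when each array was centred on its median. The scaffolds Eif4g2 and Eif4g3 differed by 0.19 and 0.11, the helicase cofactor Eif4h by 0.04 and the cap-binding relative Eif4e3 by -0.14.

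Repressors that bind eIF4E had 2 tested genes, with 1 above 0 and 1 below. Eif4enif1, the eIF4E transporter 4E-T, gave 127, 129.6 and 129 in Rsk2-KO and 153, 145 and 156 in WT. The genotypes did not overlap on any array number, and the Rsk2-KO arrays were within a few units of each other. Means were 128 ± 1.45 and 151 ± 5.74 (SD, n = 3), a difference of -0.24 (SE 0.13, limma adjusted p = 0.621). Eif4ebp2, the main neuronal eIF4E-binding repressor, gave 45.7, 34.6 and 61.5 in Rsk2-KO and 39.4, 21.4 and 65.0 in WT. These ranges overlapped (difference 0.28, SE 0.37, adjusted p = 0.821). Eif4ebp1, below the brightness limit and not tested, gave 19.0, 21.9 and 28.4 against 8.58, 22.2 and 16.9.

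Eif5a, a hypusine-bearing factor that relieves stalled ribosomes, gave 1559.6, 1732 and 1422 in Rsk2-KO and 1956, 1834 and 1435 in WT. Eif6, which keeps the large subunit from joining too early, gave 142, 168 and 184 against 188, 191 and 166. The probe set of Eif5a can also bind related transcripts. In neither gene did the genotypes separate, with differences of -0.14 (SE 0.16, limma adjusted p = 0.776) and -0.15 (SE 0.15, adjusted p = 0.756).

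Of the 7 tested elongation factors 2 lay above 0 and 5 below, with a median of -0.13. Eef1a2, the form of eEF1A used by neurons and muscle, gave 1525, 1609 and 1976 in Rsk2-KO and 2113, 1921 and 2279 in WT. Only Rsk2-KO array 3 reached the WT range, and array 3 was the highest of each genotype. Its means were 1704 ± 239.9 and 2104 ± 179 (SD, n = 3), a difference of -0.31 (SE 0.15, limma adjusted p = 0.617). Eef1a1, the form of most tissues, gave 3990.4, 4060.4 and 5372 against 4687, 4134 and 5888. The values overlapped (difference -0.13, SE 0.18, adjusted p = 0.832), and the sign turned under quantile normalization of the arrays (0.03).

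Eef2, which moves the ribosome by a codon, gave 1041, 1162 and 1289 in Rsk2-KO and 1362, 1279 and 1352 in WT. Rsk2-KO array 3 slightly exceeded WT array 2, so there was overlap (difference -0.20, SE 0.13, limma adjusted p = 0.657). Eef2k, the kinase that inhibits eEF2 and a known Rsk substrate, was dim, with 35.2, 25.1 and 43.5 in Rsk2-KO and 34.4, 32.3 and 40.5 in WT. The lowest and the highest of these 6 values were both Rsk2-KO (difference -0.08, SE 0.25, adjusted p = 0.943). The exchange factor subunits Eef1b2 and Eef1d differed by 0.03 and -0.17, Eef1e1 of the tRNA synthetase complex by -0.04, and the selenocysteine factor Eefsec by 0.11. The eEF1A methyltransferase Eef1akmt1 differed by -0.10 (SE 0.21).

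Messages with a terminal oligopyrimidine tract at their start are known to be translated together under growth control. Of 8 such factors listed, 7 were tested (Eef1a1, Eef1b2, Eef1d, Eef2, Eif3e, Eif3f and Eif3h), 2 above 0 and 5 below, with a median of -0.16. None reached an unadjusted p under 0.05. In the promoter groups above, the 13 genes with CCGGAAG comprised 3 above 0 and 10 below (median -0.20), and the 10 with CACGTG comprised 4 above and 6 below (median -0.05). Groups of other motifs also leaned below 0, such as GGGCGG (9 above and 17 below), CCAAT (4 and 10) and TTCCGG (7 and 13). Every gene with CCGGAAG also holds TTCCGG, so those groups are not separate observations. A lean below 0 was also that of all 46 factors (58.7% below) and of all genes (56.4%). CGCATGCG had 1 gene on each side.

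Several factors had more than 1 probe set above the brightness limit, which gives a second reading of the same RNA. Of 21 such genes, 8 had all probe sets above 0, 5 had all below 0 and 8 were mixed. One sign was thus shared in 61.9%, against 62.0% of the 3091 tested genes with several probe sets. All 4 probe sets of Eif3a were above 0, at 0.50, 0.38, 0.31 and 0.79. For 2 of them the genotypes did not overlap, including the dimmest, with signals of 41.2, 40.3 and 31.3 in Rsk2-KO and 23.8, 20.4 and 20.7 in WT. Between the arrays numbered 3, the 4 probe sets in the same order were at -0.02, 0.24, -0.24 and 0.60. On arrays 1 and 2 they were at 0.76, 0.45, 0.58 and 0.89.

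The 4 probe sets of Eif5 ranged from 0.35 to 0.56, the 3 of Eif5b from 0.25 to 0.43 and the 5 of Eif2s2 from 0.12 to 0.90. The 0.43 of Eif5b came from signals of 30.2, 26.3 and 20.4 in Rsk2-KO and 13.2, 16.8 and 29.7 in WT. All its Rsk2-KO signals but not WT arrays 1 and 2 lay above the brightness limit of 19.2, so its sign adds no support. Between the arrays numbered 3 that probe set differed by -0.54. The 4 probe sets of Eif3c, a core eIF3 subunit, were all below 0, from -0.31 to -0.12. Probe sets of Eif4e2 disagreed, at -0.48, 0.12 and -0.22. The second probe set of Eif3i was at 0.02, and the mean over both gave -0.10 in place of -0.23. Probe sets of Eif4ebp2 disagreed too, at 0.28, -0.16 and -0.51. The last of these gave 25.8, 19.9 and 25.7 in Rsk2-KO and 33.5, 35.1 and 32.6 in WT, without overlap, on the other side of 0 from the brightest. Also mixed, brightest first, were Eif2d (-0.01, -0.04 and 0.62), Eif4h (0.04, -0.08 and -0.36) and Eif4a1 (0.03, -0.07 and -0.10). So were Eif4e3 (-0.14 and 0.30) and Eef1akmt1 (-0.10, -0.10, -0.17 and 0.85). For the 0.85, Rsk2-KO array 1 and WT arrays 1 and 3 lay under the brightness limit, so its sign adds no support.

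**Figure D3:**
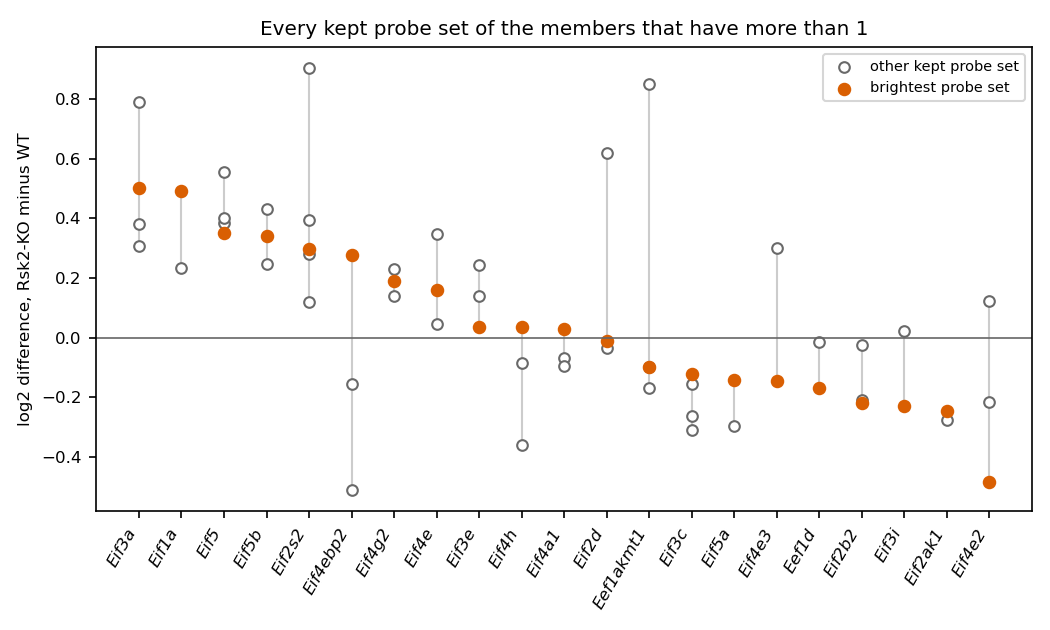
Log2 difference (Rsk2-KO minus WT, y axis) of every probe set above the brightness limit for the 21 factors with more than 1, with the brightest filled and the others open. Probe sets of Eif3a, Eif5, Eif5b and Eif2s2 all lie above 0, those of Eif3c all lie below, and those of Eif4ebp2 span 0.28 to -0.51. The highest of Eif5b (0.43) has WT arrays 1 and 2 under the brightness limit.

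Without both arrays numbered 3, an alternative chosen after seeing the data, 2 of 46 factors passed the test as higher (2.96% of all genes did) and 0 as lower (0.648% of all genes). These were Eif3a (difference 0.76, SE 0.13, limma adjusted p = 0.0267) and Eif1a (0.72, SE 0.16, adjusted p = 0.0467). Next came Eif2s2 (0.44, adjusted p = 0.0632) and Eif5 (0.48, adjusted p = 0.0673), both above the threshold. Of the genes below 0, Eif3h was nearest to it (-0.38, adjusted p = 0.0876).

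In the same 4 arrays, signals did not overlap for 11 factors that were higher (23.9%, against 25% of all genes) and for 23 that were lower (50%, against 32.2% of all genes). The 23 comprised 7 of 11 eIF3 subunits, 5 of the 6 genes of eIF2, eIF2B and relatives, and 4 of 7 elongation factors. With fewer arrays, separation is easier by construction. On 5 arrays the counts depended on which array was left out. Without Rsk2-KO array 3 they were 8 higher and 14 lower (13.3% and 23.2% of all genes), without WT array 3 they were 7 and 15 (17.2% and 17.7%), and without WT array 2 they were 6 and 9 (8.97% and 14.4%). Without WT array 1 they were 3 and 4, as on all 6 arrays (6.98% and 12.85% of all genes). Without Rsk2-KO array 1 they were 3 and 5 (7.25% and 10.3% of all genes), and without Rsk2-KO array 2 also 3 and 5 (8.16% and 12.6%).

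The median difference of the 46 factors was -0.14 on arrays 1 and 2 and 0.05 for Rsk2-KO array 3 against WT array 3. Of the 46 factors 26 (56.5%) had the same sign in both, against 51.8% of all genes. Eif2ak2 had 0.69 and 0.70, but it was tested only because of its Rsk2-KO arrays, so this supports nothing. Eif2b5 had -0.27 and -0.24, and Eif4enif1 -0.22 and -0.28. By contrast Eif3a had 0.76 and -0.02, Eif1a 0.72 and 0.04, Eif3h -0.38 and 0.02, and Eif3i -0.34 and -0.01. The difference between these values was not tested, and there is 1 array per genotype among those numbered 3. The labels do not say what the numbers stand for.

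**Figure D4:**
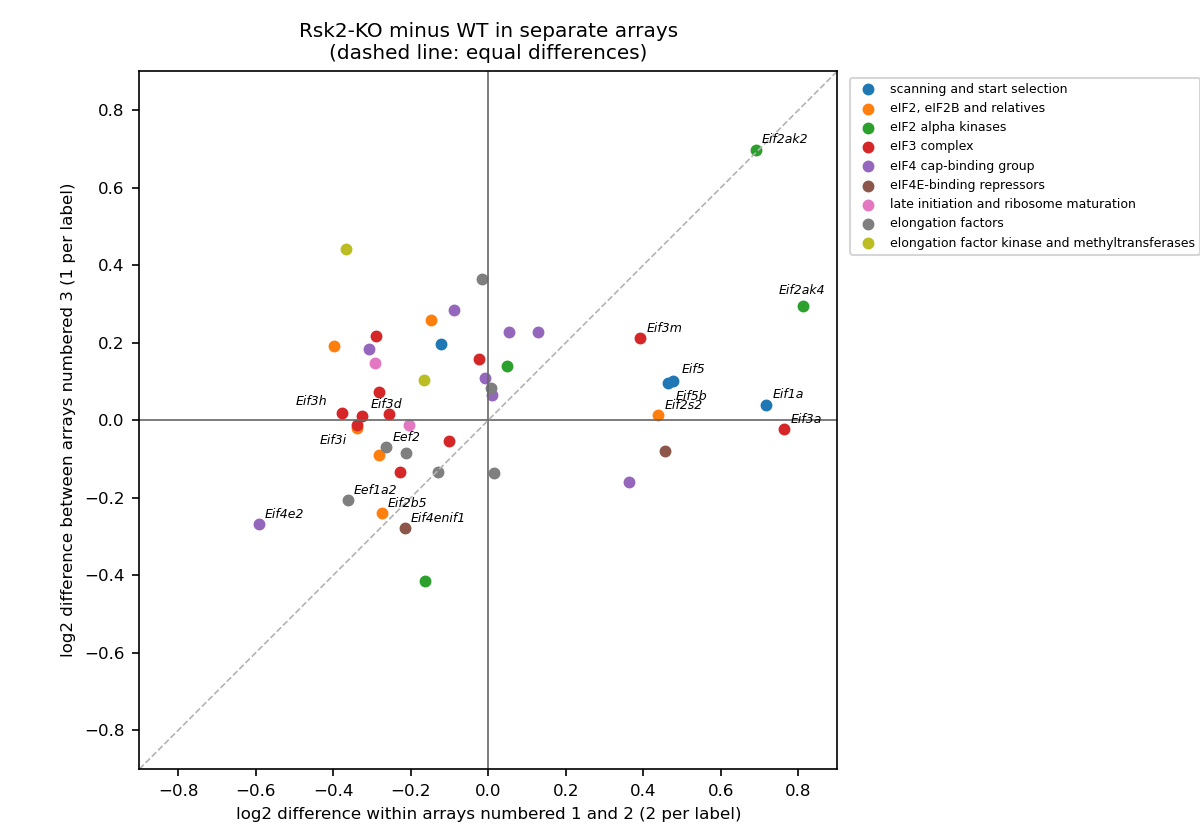
Log2 difference (Rsk2-KO minus WT) of each of the 46 factors on arrays 1 and 2 (x axis, 2 arrays per genotype) and on array 3 alone (y axis, 1 array per genotype), coloured by role. Eif2b5 and Eif4enif1 lie near the dashed line of equal differences, while Eif3a, Eif1a and the eIF3 subunits Eif3h, Eif3i and Eif3d lie near the horizontal axis. Eif2ak2 is near the dashed line too, but it was tested only because of its Rsk2-KO arrays.

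The factor genes spanned a median of 18.3 kb in the RefSeq annotation (GRCm38.p6), those above 0 24.3 kb and those below 0 13.3 kb. All tested genes spanned a median of 23.6 kb. Spearman's rho between difference and span was 0.228 over the 46 factors, where genes are not independent replicates, and 0.236 over the 7859 tested genes with a span. The part of gene span in the factor values was not tested beyond removing its trend from each array, which moved the factors' median from -0.08 to -0.03. The same step moved several genes of short span by over 1.5 times, in both directions. Towards 0 went Eef2 (from -0.20 to -0.10), Eef1a1 (-0.13 to -0.03), Eif5a (-0.14 to -0.04), Eif6 (-0.15 to -0.05) and Eif3i (-0.23 to -0.15). Eif4a1, which spans 5.49 kb, moved away from 0, from 0.03 to 0.13.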

How the data were processed

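RNA from 6 pools of hippocampi was hybridised to Affymetrix arrays. Each deposited value is the linear intensity of a probe set. MAS5 made it, per the submitters' processing notes, which as used here name neither version nor settings. MAS5 scales each array, and the mean after trimming 2% at each end was 100.0 in all 6, so a difference in total RNA would be removed. The number of arrays limits the precision.

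Of 22690 probe sets, 20380 had 1 symbol in the platform annotation, 691 several, 1555 none and 64 were controls. The factors had 110 single-symbol probe sets, 88 above the brightness limit, and all 49 genes matched the RefSeq table. Another 6 factor probe sets carried several symbols and were not named. Log2 signals entered a linear model of genotype in limma 3.58.1 (R 4.3.3; two-sided moderated test, prior variance following intensity, Benjamini-Hochberg over all 7867 genes), checked on simulated data; tables were joined in Python 3.11.15. With 3 against 3 arrays, an exact permutation test cannot go below p = 0.1, so none was run.

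The genes, lists and tests were chosen with earlier results of these data known. The 8 factors with the smallest p in each direction, and others set by role, are given in full; further names were added after their values were seen. Eif4g1, Eif2s1 and Eef1g, on those lists, had no single-symbol probe set and were not analysed here. Further motifs of greater length were looked at while the motif list was drawn up and are not reported.

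Array numbers were not taken to pair the samples, since the deviations of the arrays numbered 1 correlated at 0.074, against 0.366 and 0.396 for the other numbers. Alternatives were other scalings, offsets, filters, probe set choices and priors, array weights, a block on the array number and leaving out arrays.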

Additional observations from a re-analysis of the deposited data

How the results depend on the processing

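No factor passed the adjusted threshold on all 6 arrays, or without any 1 array, under the scalings, offsets, filters, probe set choices, priors, array weights and blocks tried; it took leaving out both arrays numbered 3 to call 2 as higher (0 as lower). With the array number as a replicate block, 0 factors were called (all genes: 0 higher and 1 lower, 1194 at an unadjusted p under 0.05 against 589 without the block), and Rsk2-KO array 1 correlated best with WT array 2 (0.196) and not with its own number. Array weights gave 42 higher and 9 lower calls over all genes, none of them a factor (lowest adjusted p 0.0503, Eif3a), and a factor median of -0.14. Factors that did not overlap and were higher numbered 7 when a gene's probe sets were averaged (15.2%, against 6.29% of all genes). They numbered 11 without both arrays numbered 3 (23.9%, against 25% of all genes). Without 1 array they numbered 3 to 8 (6.52% to 17.4%, against 6.98% to 17.2% of all genes). Those that were lower numbered 8 after quantile normalization (17.4%, against 9.44% of all genes) and 23 without both arrays numbered 3 (50%, against 32.2%). Without 1 array they numbered 4 to 15 (8.70% to 32.6%, against 10.3% to 23.2% of all genes). Of 540 alternative values of the 26 named factors, 21 changed sign, all in 7 factors given by role, and none in the 16 picked for the smallest p, a choice that itself favours a stable sign. Single arrays still moved the size of some of those 16 by over 1.5 times: without 1 array, Eif2s2 ran from 0.17 to 0.52, Eif5 from 0.19 to 0.54, Eif1a from 0.32 to 0.81, Eif4e2 from -0.63 to -0.28 and Eef2 from -0.27 to -0.12. Median centring turned Eif4a1 (-0.0044) and Eif4a2 (-0.0026), and quantile normalization Eef1a1 (0.029). The mean of probe sets turned Eif4a1 (-0.046) and Eif4ebp2 (-0.13). Array weights turned Eif4a2 (-0.042) and Eif3e (-0.069), and leaving out both arrays numbered 3 turned Eif4a2 (-0.0083) and Eif3e (-0.025). Without 1 array, values ran from -0.27 to 0.0098 for Eef1a1, -0.26 to 0.14 for Eef2k, -0.11 to 0.20 for Eif4a1, -0.11 to 0.13 for Eif4a2, -0.14 to 0.66 for Eif4ebp2, -0.059 to 0.19 for Eif2ak3 and -0.16 to 0.16 for Eif3e. The cause of these turns was not tested. Eif2ak2 and Eif2ak4 had a group mean signal under 30, near the limit of 19.2, where precision is lowest.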

Other observations

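Translation genes with other names were measured in the same way. Of 39 names listed by role, 31 had a single-symbol probe set and were tested, 16 above 0 and 15 below, with a median of 0.02 and 0 past the limma adjusted threshold. At an unadjusted p under 0.05, 3 were higher (4.04% of all genes were) and 0 lower (3.44% of all genes). Genotypes did not overlap for 5 that were higher (5.47% of all genes) and for 0 that were lower (8.76% of all genes). Abce1, which recycles ribosomes after termination, gave 214, 206 and 264 in Rsk2-KO and 152, 135 and 206 in WT (difference 0.49, SE 0.18, adjusted p = 0.617). Every Rsk2-KO array was above every WT array, by less than 1 unit of signal for Rsk2-KO array 2 against WT array 3. Pdcd4, an inhibitor of the eIF4A helicase, gave 437, 405 and 397 against 343, 286 and 335, again without overlap (difference 0.37, SE 0.13, adjusted p = 0.617). Paip1, a partner of the poly(A)-binding protein, gave 172, 141 and 115 against 83.5, 112 and 116, with overlap (difference 0.46, SE 0.19, adjusted p = 0.617).

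All 5 tested initiation partners (Denr, Mcts1, Mcts2, Ddx3x and Pdcd4) lay above 0, with a median of 0.24. For 3 of them the genotypes did not overlap (5.47% of all genes were higher without overlap). Besides Pdcd4 these were Mcts1 and Mcts2, by narrow margins. The lowest Rsk2-KO and highest WT signals were 464.8 and 463.2 for Mcts1 and 105.4 and 103.3 for Mcts2. Mcts1 and Mcts2 are close copies, so their probe sets may share signal. The median was 0.39 on arrays 1 and 2 and 0.04 on array 3 of each genotype. Both enzymes that make the hypusine of Eif5a lay below 0, Dhps at -0.15 and Dohh at -0.35 (adjusted p = 0.839 and 0.642). Of the 11 tested kinases and regulators 3 lay above 0 and 8 below; Atf4, a transcription factor translated when eIF2 is phosphorylated, was at -0.28 (SE 0.15, adjusted p = 0.617) and Rheb, an activator of mTOR, at 0.32 (SE 0.17, adjusted p = 0.617).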
